A study of Mus musculus with 12 samples.

Results

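The machinery that carries a cell through the G1 phase was examined in maps of open chromatin: the 3 D-type cyclin genes Ccnd1, Ccnd2 and Ccnd3, the kinase genes Cdk4 and Cdk6, the inhibitor genes Cdkn1a, Cdkn1b and Cdkn2c, and the growth regulator Myc. They were chosen by name, with earlier results of these data known, as 9 of 21883 protein-coding genes. Each was read through the peaks that overlapped its mm10 span extended by 50 kb on either side. Those windows held 93 of the 56682 regions obtained by merging the peaks of all libraries. The assay was ATAC-seq: a transposase cuts accessible DNA and leaves sequencing adapters behind. The cells were mouse HoxB8 cells, labelled as an immortalised bone marrow line. In such lines an estrogen-dependent Hoxb8 holds myeloid progenitors in an immature, dividing state, and stem cell factor keeps them alive. All 4 groups had been without estrogen for 48 h, so no group shows the cells before that step. Each carried a guide RNA, either a non-targeting one (sgNT) or one directed at Asxl1 (sgB2, made to truncate this chromatin regulator). Each also carried the vector pMICH, either empty or with CSF3R T618I, an activating mutant of the G-CSF receptor, which drives neutrophil production. Guide and vector name a group (for example sgNT/Empty), and each of the 4 groups had 3 libraries. The labels do not say whether those 3 came from separate cultures, so p-values measure only the spread between these libraries, which may be technical.

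D-type cyclins bind Cdk4 and Cdk6, and the active pair phosphorylates the retinoblastoma protein, which releases E2F factors to switch on genes for DNA replication. Cdkn2c (p18-INK4c) blocks Cdk4 and Cdk6 directly, whereas Cdkn1a (p21) and Cdkn1b (p27) act on cyclin-kinase complexes, Cdkn1a as a well-known target of p53. Myc binds DNA with its partner Max at the E-box CACGTG and raises, among others, Ccnd2 and Cdk4. Neutrophil precursors leave the cell cycle as they mature, with Cdk6 and Myc falling, and Myc in blood cells depends on enhancers far downstream of the gene.

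Promoter sequences were matched in a RefSeq table on GRCm38.p6, which has the coordinates of mm10, for 6 of the 9 genes, with 9 starts in all. The 250 bases before 3 of those starts are printed here because they stand apart in the data or in their letters. The first start of Cdkn1a had no peak in any library, the second start had one in 5 libraries, all with T618I, and the start of Cdk4 lay under a peak in all 12. Capitals mark the p53 core (CATG repeated after a gap of 6 bases) before the first start of Cdkn1a, GGGCGG, the GC box, before the second start, and CACGTG before the start of Cdk4. All 3 are on the + strand.
Cdkn1a, first start (chr17:29090729-29090978): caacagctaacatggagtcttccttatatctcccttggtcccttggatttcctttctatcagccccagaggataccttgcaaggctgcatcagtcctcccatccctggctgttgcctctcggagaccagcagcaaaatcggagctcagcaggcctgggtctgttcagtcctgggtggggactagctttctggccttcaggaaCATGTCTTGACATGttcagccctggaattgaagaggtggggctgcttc
Cdkn1a, second start (chr17:29093519-29093768): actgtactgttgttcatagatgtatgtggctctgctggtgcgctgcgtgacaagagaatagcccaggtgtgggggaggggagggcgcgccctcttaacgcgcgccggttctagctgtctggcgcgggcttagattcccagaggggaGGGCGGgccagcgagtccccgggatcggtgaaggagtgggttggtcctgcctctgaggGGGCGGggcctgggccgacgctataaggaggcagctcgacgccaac
Cdk4 (chr10:127063285-127063534): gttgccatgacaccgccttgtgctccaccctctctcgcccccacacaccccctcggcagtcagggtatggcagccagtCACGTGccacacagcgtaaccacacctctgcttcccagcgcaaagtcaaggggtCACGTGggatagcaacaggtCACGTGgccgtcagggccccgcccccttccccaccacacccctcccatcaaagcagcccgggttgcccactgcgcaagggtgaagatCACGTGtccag
Motifs were searched on both strands in windows of 300 bases, from 250 before to 50 after each start. Cdk4 had 4 matches to CACGTG, which 7.15% of all 32851 windows held at least once and 8 windows (0.0244%) held at least 4 times. The p53 core was found in 0.712% of windows and GGGCGG in 35.7%. Neither TTCNNNGAA, the palindrome bound by STAT factors (8.3% of windows), nor the E2F motifs TTTCGCGC, TTTGGCGC, TTTCCCGC and TTTGCCGC (2.26%) were present in the 9 windows. A match describes letters only and does not show binding.

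Each library came as a single peak list, with 18484 to 32975 peaks covering 9.23 to 17.9 Mb and no read counts, so the depth is unknown and no counting interval can be given. The shortest lists were those of sgNT/Empty replicate 1 (18484 peaks) and sgB2/Empty replicate 1 (20293). Covered length was therefore scaled to the same total in every library and is given in scaled kb. Without scaling the median change over all genes moved from -0.05 to 0.20 on the log2 scale for T618I and from 0.00 to -0.14 for sgB2. The calls of T618I were then 837 up and 16 down in place of 619 and 369, and those of sgB2 7 and 15 in place of 233 and 199. Every change in scaled units below is thus a change in share of its library's covered bases. Lengths of single regions given in plain bp are not scaled, while the scale factors ran from 0.781 (sgB2/T618I replicate 2) to 1.52 (sgNT/Empty replicate 1). As a check of the label, all 6 general hematopoietic markers had a peak in all 12 libraries, as did 7 of 10 myeloid progenitor and 5 of 10 maturing neutrophil markers. The B cell marker Cd79b, the T cell markers Cd3e, Cd3g, Cd4 and Cd8a, and Alb, Krt8 and Epcam had a peak in 0 libraries. The other lists were in between, with a peak in all 12 libraries at Klf1 and Itga2b (erythroid and megakaryocyte), Csf1r and Cx3cr1 (macrophage), Hdc (mast cell), Ebf1 (B cell) and, among 5 non-hematopoietic genes, Col1a1 and Pecam1.

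The windows of the 9 genes differed widely in how much open chromatin they held. Per kb of window, peaks covered 38.0 scaled bp at Cdk4, 30.5 at Cdkn1b, 29.1 at Ccnd3, 25.4 at Cdk6, 21.9 at Cdkn1a, 21.8 at Cdkn2c, 17.6 at Ccnd2, 13.2 at Myc and 12.7 at Ccnd1, as means of the 12 libraries. The median of the 15282 genes that could be tested was 16.5, so only Myc and Ccnd1 lay below it. Other protein-coding genes share these windows, 9 at Cdk4, 6 at Ccnd3, 2 each at Ccnd1, Ccnd2, Cdk6, Cdkn1a and Cdkn1b, 1 at Cdkn2c and 0 at Myc, so the values belong to a neighbourhood and not to a promoter. Of the 93 regions, 34 (36.6%) had a peak in all 12 libraries, against 23.6% of all regions. The windows are centred on genes while all regions are not, and the share over the windows of all genes was not counted. A further 38 had one in 2 to 11 libraries and 21 in a single library.

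**Figure D1:**
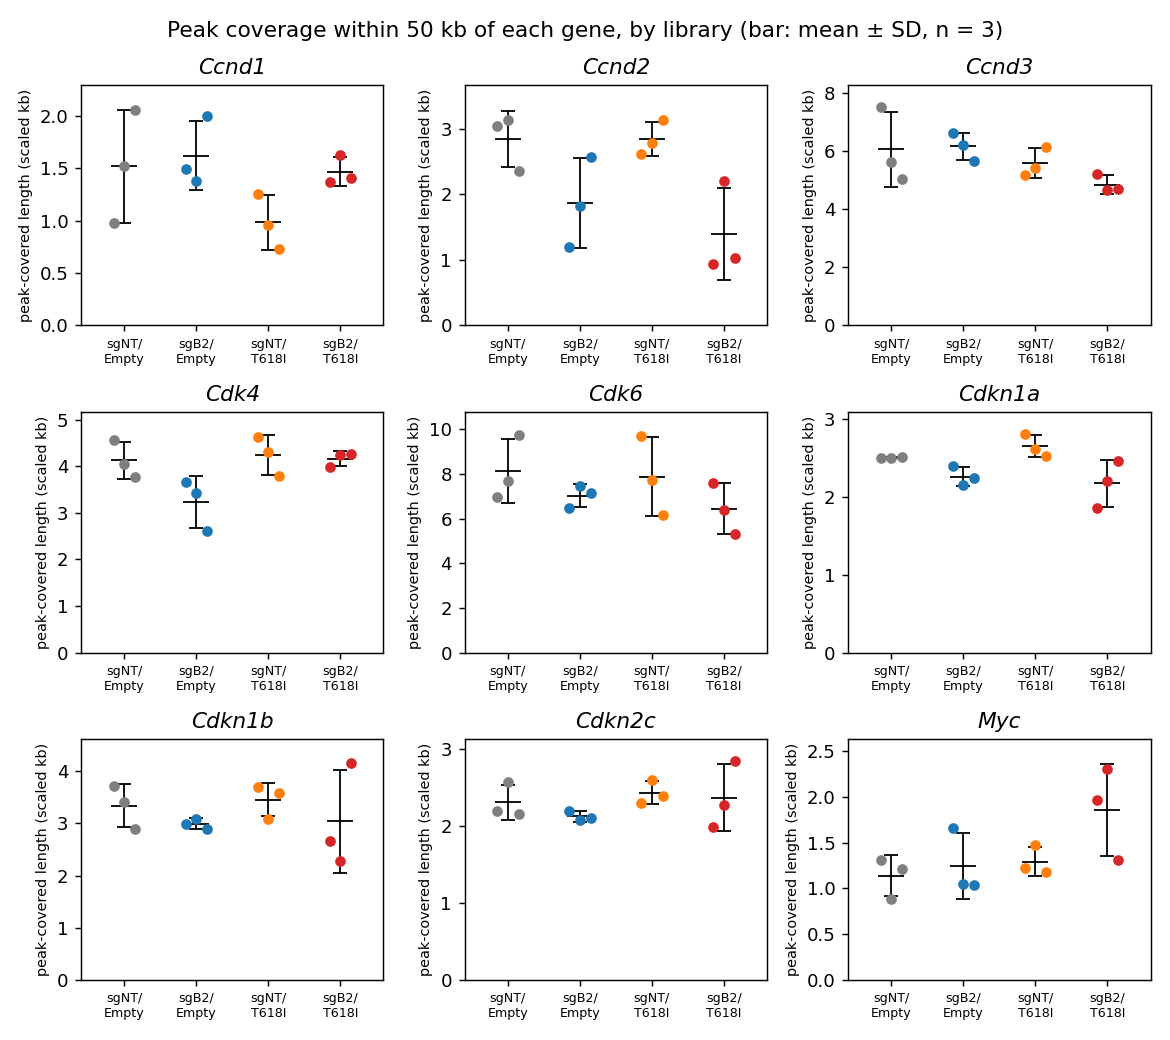
Peak-covered length within 50 kb of each of the 9 genes (scaled kb, vertical axis) in each library, by group; points are libraries, lines the mean and bars the SD (n = 3). The sgB2 points of Ccnd2 lie below the sgNT points of the same vector except for 1 library, and most other genes overlap between groups.

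The first question was whether open chromatin around these genes differed with the Asxl1 guide over both vectors (6 sgB2 against 6 sgNT libraries). Coverage fell around Ccnd2 and passed the test at no other of the 9 genes. That is 1 of 9, where 2.83% of all tested genes were called, 1.52% upward and 1.3% downward. The members' median log2 change was -0.16, against 0.00 for all genes. In the Empty cells, Ccnd2 had 3.04, 3.13 and 2.36 scaled kb with sgNT and 1.20, 1.82 and 2.57 with sgB2. With T618I it was 2.62, 2.78 and 3.12 with sgNT and 0.935, 2.2 and 1.03 with sgB2. All 3 sgB2 libraries lay below all 3 sgNT libraries with T618I, while in the Empty cells sgB2 replicate 3 was above sgNT replicate 3. Here and at the other windows below, the share of all genes whose groups do not overlap was not counted. Such orders of window coverage are therefore a description only. The same holds for orders of the length covered in single regions. The group means were 2.84 ± 0.423 and 1.87 ± 0.687 scaled kb in the Empty cells and 2.84 ± 0.259 and 1.39 ± 0.705 in the T618I cells (SD, n = 3). The change was -0.71 ± 0.16 (SE) on the scale of log2(scaled bp + 500), a fitted ratio of 0.613 (limma adjusted p = 0.0264); the added 500 bp understates the change of sparse windows. It was -0.53 ± 0.23 in Empty cells (adjusted p = 0.365) and -0.88 ± 0.23 in T618I cells (adjusted p = 0.12), and the test of the difference between them did not pass (-0.35 ± 0.32, adjusted p = 0.999). In these comparisons within 1 vector, 0 members were called, beside 0.353% and 0.36% of all genes.

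The call at Ccnd2 was not firm. A 10 kb window ended it (-1.03, limma adjusted p = 0.0916), and it was also lost without scaling (-0.83, 0.221), without the filter on low values (0.149), with peaks counted in place of bases (-0.26, 0.333), with peaks at a −log10 q of at least 5 (-0.12, 0.741) and with lists cut to equal length (-0.25, 0.478). Leaving out 1 library at a time ended it for 8 of 12: sgNT/Empty replicate 2 (adjusted p = 0.0593), sgB2/Empty replicates 1 (0.0582) and 2 (0.0515), sgNT/T618I replicates 1 (0.0517), 2 (0.0599) and 3 (0.069), and sgB2/T618I replicates 1 (0.0686) and 3 (0.064). Without both shortest lists the change was -0.57 (adjusted p = 0.0834).

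The difference was widest at the start of the gene. Ccnd2 (chromosome 6, 127125162 to 127152188) is read from its higher coordinate, and a region there (127150630 to 127152838) had a scaled mean of 824 ± 519 bp under sgNT and 190 ± 168 under sgB2 with the empty vector, and of 1580 ± 77.2 and 305 ± 529 with T618I (SD, n = 3). In single libraries peaks covered 829, 995 and 299 bp under sgNT and 0, 219 and 299 bp under sgB2 with the empty vector. In T618I cells it was covered over 1957, 1683 and 1875 bp with sgNT and 0, 1172 and 0 bp with sgB2. It thus had a peak in all 6 sgNT and 3 of 6 sgB2 libraries, which did not pass an exact permutation test of presence within each vector (two-sided p = 0.2). The long sgNT/T618I peaks there were weak in rank. By −log10 p they stood at 75.7 to 80.2% of their lists, where 0 is the most significant peak, against 41.3 to 48.5% in sgNT/Empty. The sgB2/Empty peaks were not weaker than those, at 32.0% (replicate 2) and 47.3% (replicate 3). Their fold enrichment by the authors was 5.50 and 4.49, against 3.83 to 4.58 in sgNT/Empty. In sgB2/T618I the peak of replicate 2 stood at 95.2%, with a fold of 2.75. One inside the gene (127142192 to 127143487) had a peak in all 12 libraries, with 186 to 1265 bp, and scaled means of 1107 ± 78.6 bp under sgNT and 854 ± 496 under sgB2 with the empty vector, and of 712 ± 484 and 487 ± 332 with T618I (SD, n = 3). One at an end of Tigar, 15.3 kb away, was in all 12 as well, among the first 4.61 to 15.8% of each list. A region 13.4 kb before the start (127165595 to 127165951, within the non-coding gene 9330179D12Rik) followed the vector in place of the guide. It had a peak in all 6 Empty libraries, in sgNT/T618I replicate 1 and in no sgB2/T618I library (exact p = 0.02 for T618I, adjusted p = 0.764 over 37113 regions).

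For the other D cyclins no change was called. Ccnd1 (chromosome 7, 144929931 to 144939831) had no region at either end of the gene in any library, and the peaks inside it were found in at most 4 libraries. Its window held 0.975, 1.53 and 2.05 scaled kb under sgNT and 1.49, 1.38 and 2.00 under sgB2 with the empty vector, and 1.26, 0.961 and 0.728 under sgNT and 1.37, 1.62 and 1.4 under sgB2 with T618I. With T618I the 3 sgNT libraries were all below the 3 sgB2 libraries, and all other pairs of groups that differ in 1 factor overlapped. The change was 0.26 ± 0.14 with sgB2 (limma adjusted p = 0.405) and -0.26 ± 0.14 with T618I (adjusted p = 0.273). Its single region in all 12 libraries lies at an end of the neighbour LTO1, 14.4 kb away. A pair of weak regions beyond the start appeared mostly with sgB2. That at 144943294 to 144943724 had a peak in 3 sgB2/Empty and 2 sgB2/T618I libraries and in 0 of 6 sgNT libraries (exact p = 0.02, adjusted p = 1 over the same regions), and that at 144941414 to 144941761 in all 3 sgB2/Empty libraries and in 1, 1 and 0 of the sgNT/Empty, sgNT/T618I and sgB2/T618I libraries.

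Ccnd3 (chromosome 17, 47505051 to 47599689) had the most regions of the D cyclins. Of its 18 regions, 9 had a peak in all 12 libraries, and no region separated any groups. Its first listed start had a peak in 0 libraries and the second start in 12 (region 47593256 to 47593842, covered over 443 to 570 bp). Coverage was 7.51, 5.61 and 5.04 scaled kb under sgNT and 6.61, 6.22 and 5.66 under sgB2 with the empty vector, and 5.17, 5.41 and 6.15 under sgNT and 5.21, 4.65 and 4.69 under sgB2 with T618I. The sgB2/T618I libraries were all below the sgB2/Empty ones, and no adjusted p passed for either factor (T618I -0.21 ± 0.09, limma adjusted p = 0.198; sgB2 -0.07 ± 0.09, adjusted p = 0.801). Beside the second start, the region 47595549 to 47597006 stood at 1.8 to 10.9% of the lists with T618I and at 14.1 to 33.1% with the empty vector. This places all 6 T618I libraries higher by percentage, though not by rank number. The share of all regions with such an order by percentage was not counted, so this is a description only.

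**Figure D2:**
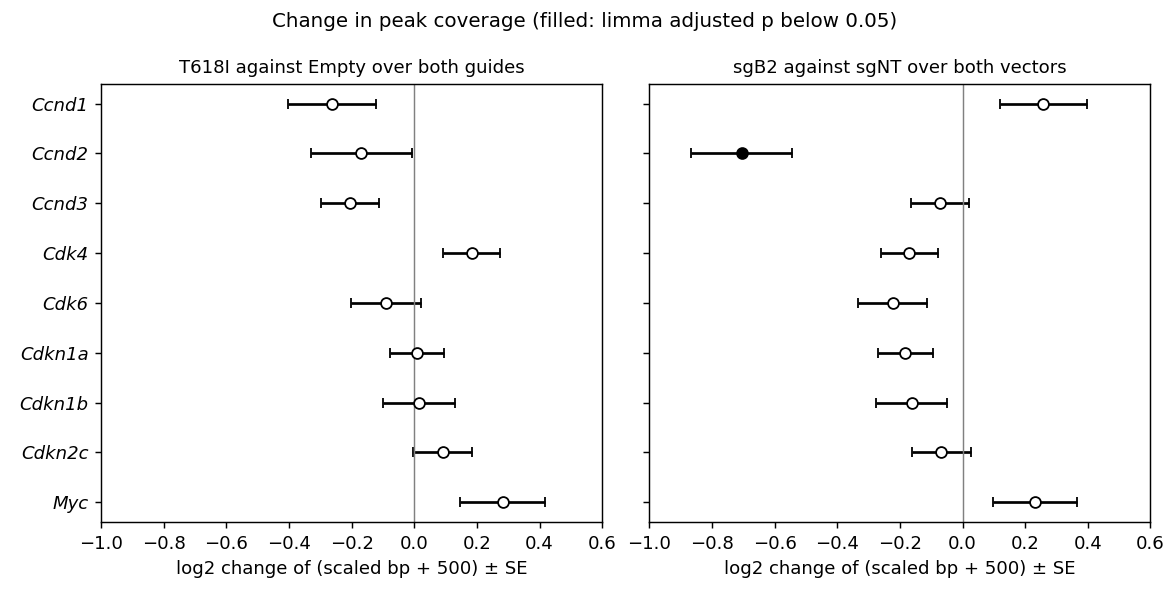
Fitted log2 change of scaled covered bp + 500 (horizontal axis, with SE) for the 9 genes with T618I and with sgB2. Ccnd2 with sgB2, at -0.71, is the filled point, and the other 17 values did not pass.

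The next question was whether it differed with CSF3R T618I over both guides (6 against 6 libraries). None of the 9 windows passed the test, that is 0 of 9, where 6.47% of all tested genes did (4.05% upward and 2.41% downward), and 1 had an unadjusted limma p under 0.05, as did 22.6% of all genes. The values ran from -0.26 at Ccnd1 to 0.28 at Myc, with a median of 0.01, against -0.05 for all genes. No member was called in sgNT cells (background 1.49%, 1.16% upward and 0.327% downward), in sgB2 cells (1.6%) or by the test of the difference between them (0.00654%) either. The calls depended on the processing. With lists cut to equal length, 4 of 9 members passed, where 8.48% of all genes tested in that way did: Ccnd2 (-0.74, limma adjusted p = 0.0181), Ccnd1 (-0.28, 0.0182) and Cdk6 (-0.30, 0.0483) downward and Cdk4 (0.22, 0.0459) upward. Counting peaks in place of bases called Ccnd2 (-0.45, 0.0441), where 2.69% of genes were called.

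At the level of single regions, 1 of the 72 regions found in at least 2 libraries separated T618I from Empty cells, by having a peak in all 6 T618I libraries and in 0 of 6 Empty libraries. Over all 37113 such regions 0.684% were gained in this way and 0.0862% lost. This region lies inside Cdk6 (chromosome 5, 3494452 to 3494743, in a gene that spans 3341004 to 3531008). It was covered over 255, 230 and 248 bp in sgNT/T618I and 202, 194 and 198 bp in sgB2/T618I. Its peaks stood in the middle of their lists, at 37.8 to 56.3%, with the authors' fold enrichment at 2.91 to 3.49. The exact stratified permutation test gave a two-sided p = 0.005, the smallest it can give, and 0 of the 37113 regions passed after adjustment (adjusted p = 0.649 here), although 286 had that p. The separation was kept with equal-length lists, with at least 50% of the region covered, without either or both of the shortest lists and in each of the 12 sets that left out a library, but not with the stricter peaks. No member region separated sgB2 from sgNT cells, where 0.0754% of the 37113 regions were gained and 0.181% lost.

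**Figure D3:**
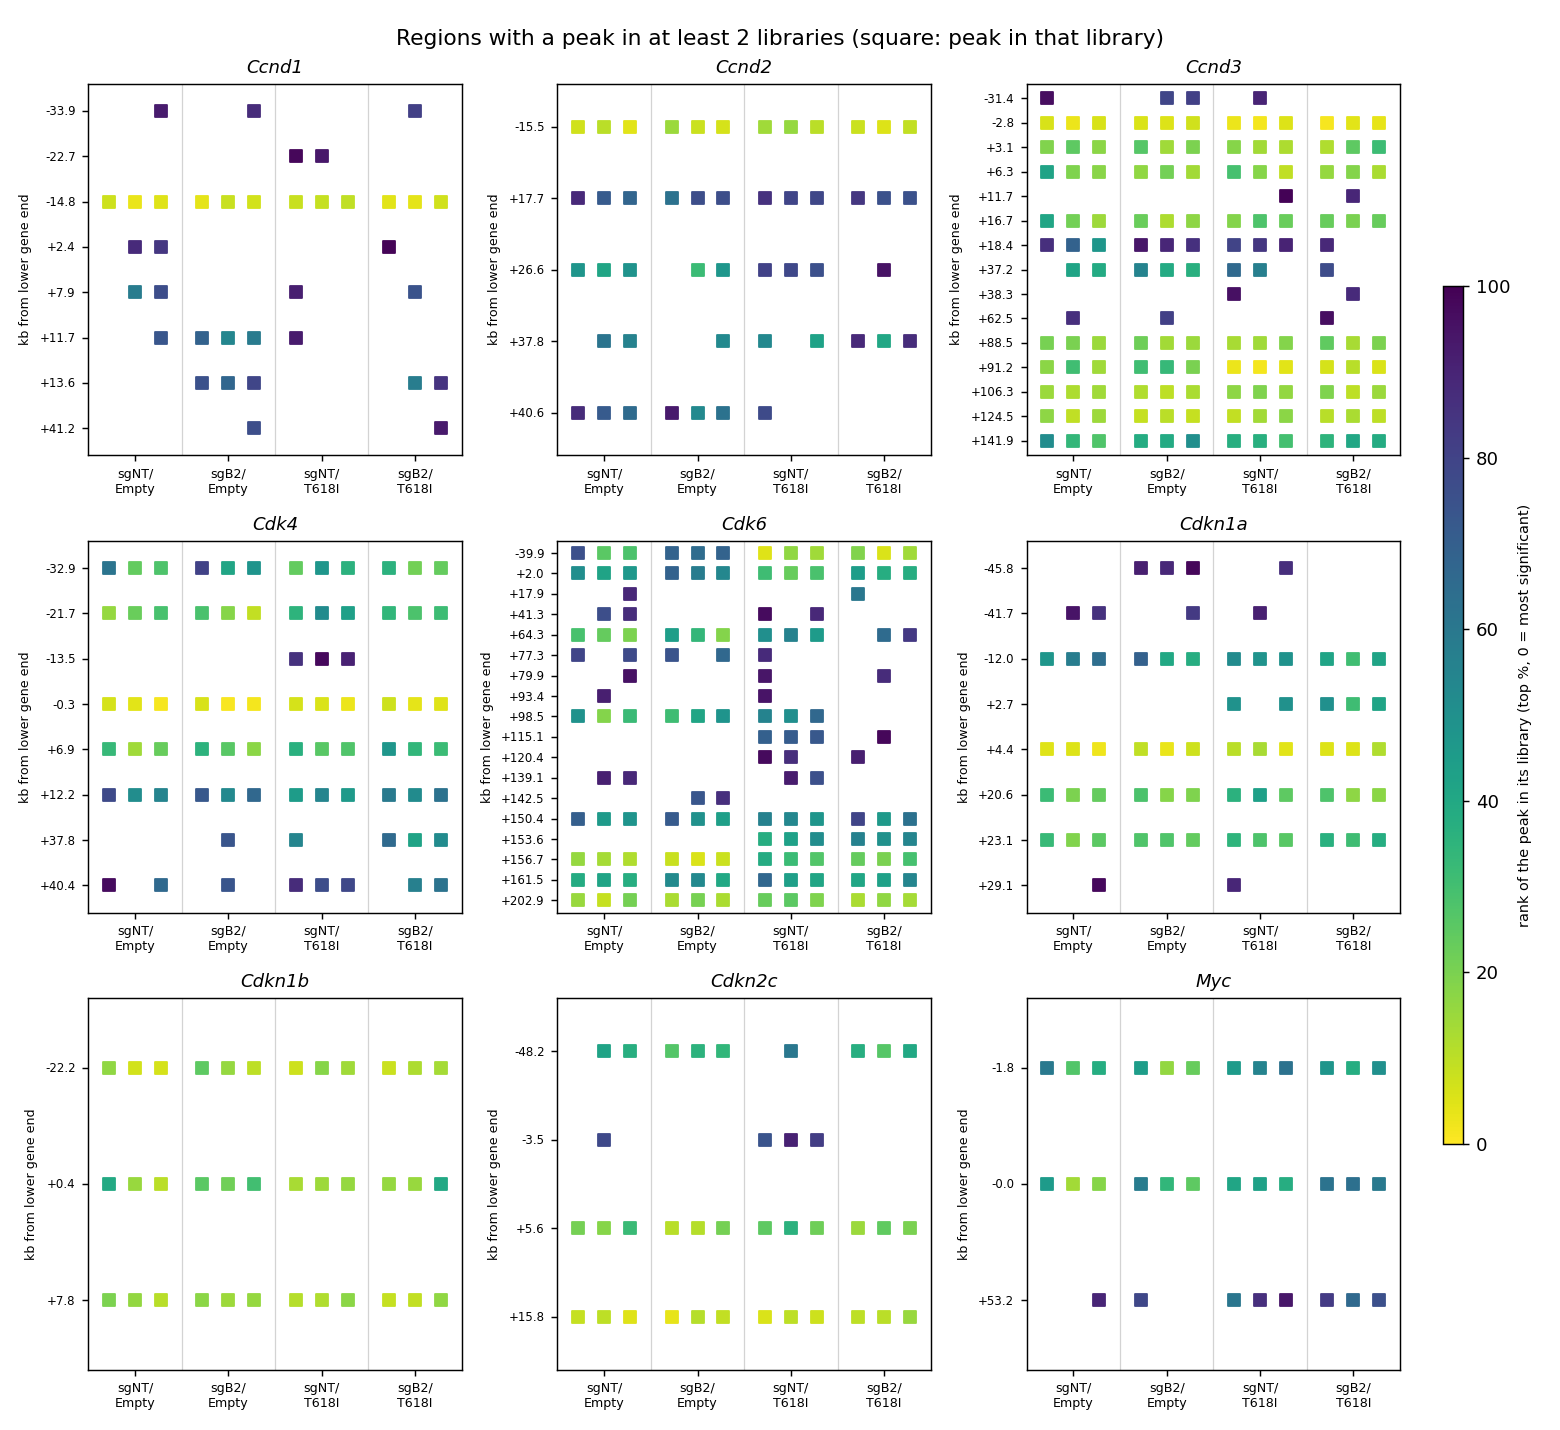
Peaks in the 12 libraries for each region found in at least 2 of them, 1 column a library and 1 row a region, the rows in order of position, evenly spaced and labelled with the distance in kb from the lower end of the gene; colour gives the place of the peak in its library by −log10 p (0 is the most significant). Rows filled across are present in all libraries, and 1 row of Cdk6 is filled in the 6 T618I libraries and empty in the other 6.

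Cdk6, the kinase that partners D cyclins in immature blood cells, had the most regions, 25, of which 6 were in all 12 libraries and 7 in a single one. Its coverage was 6.97, 7.68 and 9.76 scaled kb under sgNT and 6.47, 7.48 and 7.17 under sgB2 with the empty vector, and 9.70, 7.76 and 6.17 under sgNT and 7.61, 6.39 and 5.33 under sgB2 with T618I. All pairs of groups overlapped, and neither factor passed (T618I -0.09 ± 0.11, limma adjusted p = 0.643; sgB2 -0.22 ± 0.11, adjusted p = 0.352). The region at its start (3341189 to 3344779) was in all 12 libraries, with 914 to 3505 bp covered. Within the gene, the regions went different ways. One at 3439330 to 3439775 was covered over 194, 419 and 444 bp in sgNT/Empty, 187, 300 and 419 bp in sgB2/Empty and 292, 194 and 266 bp in sgNT/T618I, and had no peak in any sgB2/T618I library. One at 3455939 to 3456297 had a peak in all 3 sgNT/T618I libraries (203 to 313 bp), in sgB2/T618I replicate 2 and in no Empty library (exact p = 0.05). Among the regions in all 12 libraries, order within the list moved as well. The region 3300738 to 3301459, 39.5 kb before the gene and within the non-coding gene Gm36470, was ranked 1366 to 4734 in the 6 T618I lists and 6789 to 17762 in the 6 Empty lists. Inside the gene, the region 3497270 to 3498121, which neighbours the gained one, was ranked 5894 to 11159 with T618I and 1412 to 3631 with the empty vector. Neither pair of ranges overlapped, nor did the places as a percentage of the list, at 4.78 to 18.9 and 25.5 to 75.6 for the first region and 20.2 to 39.0 and 5.59 to 15.8 for the second region. Such orders were looked for after the data had been seen and are given as a description. Of the 13356 regions in all 12 libraries, 2.2% were ranked higher in all 6 T618I lists and 2.94% lower. Those shares are for rank number, and the share that does not overlap by percentage of the list was not counted.

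Cdk4, the other D cyclin kinase, had its main peak in every library. The region over its start (chromosome 10, 127062603 to 127063883), the one with the 4 CACGTG matches printed above, was covered over 588 to 1281 bp and stood among the first 0.923 to 7.71% of every list. Coverage of the window was 4.56, 4.05 and 3.78 scaled kb under sgNT and 3.66, 3.43 and 2.61 under sgB2 with the empty vector, and 4.64, 4.31 and 3.79 under sgNT and 3.98, 4.25 and 4.25 under sgB2 with T618I. The 3 sgB2/Empty libraries were below all 9 others, an order whose share over all genes was not counted. Neither the guide (-0.17 ± 0.09, limma adjusted p = 0.393) nor T618I (0.18 ± 0.09, adjusted p = 0.241) passed. At an end of Agap2, 7.77 kb away, the region 127075056 to 127076388 was covered over 291, 249 and 342 bp in sgB2/Empty and 348 bp in sgNT/Empty replicate 1, and over 1173 to 1279 bp in the other 8 libraries. Inside Cyp27b1, a region at 127049762 to 127050362 had a peak in the 3 sgNT/T618I libraries alone (421, 543 and 178 bp). Inside Os9, one at 127101034 to 127101592 had a peak in all 3 sgB2/T618I libraries, in sgB2/Empty replicate 2 and sgNT/T618I replicate 1, and in no sgNT/Empty library.

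Among the inhibitors, Cdkn1a (chromosome 17, 29090979 to 29100722) had 2 regions close together in the gene that are described here. One had a peak more often with T618I, which did not pass after adjustment. The other had a peak in all 12 libraries. In sgNT cells it was wider with T618I but lower in the authors' fold enrichment, and neither difference was tested. The second of its listed starts, printed above, had a peak (29093570 to 29093809) over 183, 0 and 176 bp in sgNT/T618I and 215, 197 and 183 bp in sgB2/T618I, and none in the 6 Empty libraries. That is 5 of 6 against 0 of 6 (exact two-sided p = 0.02, adjusted p = 0.764 over 37113 regions). The next region, 29094785 to 29095888, was among the first 2.68 to 13.2% of every list. It was covered over 411, 460 and 503 bp under sgNT and 422, 360 and 536 under sgB2 with the empty vector, and 937, 1086 and 974 under sgNT and 332, 1067 and 489 under sgB2 with T618I. It was wider in all 3 sgNT/T618I libraries than in any Empty library, whereas with sgB2 only replicate 2 was. The scaled means were 496 ± 111 bp under sgNT and 536 ± 109 under sgB2 with the empty vector. With T618I they were 861 ± 93.0 and 575 ± 245 (SD, n = 3). The share of all regions with such an order of width was not counted, so this is a description only. The window of 50 kb did not follow the receptor. It held 2.51, 2.50 and 2.51 scaled kb under sgNT and 2.40, 2.15 and 2.24 under sgB2 with the empty vector, and 2.81, 2.62 and 2.53 under sgNT and 1.86, 2.2 and 2.47 under sgB2 with T618I. The sgB2 libraries were below all sgNT libraries of the same vector, by a small margin. The T618I change was 0.01 ± 0.09 (limma adjusted p = 0.961), and the sgB2 change -0.18 ± 0.09 (adjusted p = 0.322). In the 10 kb window the T618I change was 0.51 and passed (adjusted p = 0.026), where 2.08% of 11887 tested genes rose. Farther out, the region at Trp53cor1 (29078572 to 29079440), a non-coding gene known as lincRNA-p21, was in all 12 libraries with 200 to 851 bp covered, and a weak one at 29044991 to 29045368 had a peak in all 3 sgB2/Empty libraries and in 1 other.

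Cdkn1b had a peak at its listed start in all 12 libraries. Of the 2 listed starts of Cdkn2c, the one upstream had a peak in 12 libraries and the other in 0. At Cdkn1b (chromosome 6, 134920401 to 134925525), 3 regions were in all 12 libraries and the other 3 in 1 library each. The 3 were the start (134919872 to 134921681), the neighbouring non-coding gene Lockd (134927168 to 134929185) and an end of Gpr19, and each stood within the first 39.9% of all lists. The start was covered over 1621, 1561 and 1701 bp in sgNT/T618I, against 831 to 852 bp in sgNT/Empty and 552 to 903 bp in sgB2/Empty. With sgB2 and T618I it was 786, 865 and 1714 bp. These lengths are not scaled. The scale factors were 1.52, 0.972 and 0.831 in sgNT/Empty and 0.832, 0.886 and 0.865 in sgNT/T618I, so scaling narrows the gap to sgNT/Empty replicate 1. The share of all regions with such an order was not counted, so it is a description only. Window coverage was 3.34 ± 0.419 scaled kb under sgNT and 3.0 ± 0.101 under sgB2 with the empty vector, and 3.46 ± 0.323 and 3.04 ± 0.997 with T618I (SD, n = 3), with 0.01 ± 0.11 for T618I (limma adjusted p = 0.955) and -0.16 ± 0.11 for sgB2 (adjusted p = 0.558). At Cdkn2c (chromosome 4, 109660876 to 109666756), the region over that upstream start (109665697 to 109667268, 499 to 1543 bp) and one at an end of Faf1, 9.39 kb away, were in all 12 libraries. Window coverage there was 2.31 ± 0.228, 2.12 ± 0.0671, 2.43 ± 0.151 and 2.37 ± 0.439 scaled kb in the same order, with 0.09 ± 0.09 for T618I (adjusted p = 0.581) and -0.07 ± 0.09 for sgB2 (adjusted p = 0.82). A region at 109656975 to 109657708, by the non-coding gene 9630013D21Rik, had a peak in all 3 sgNT/T618I libraries and in sgNT/Empty replicate 2, and in 0 of 6 sgB2 libraries (exact p = 0.05).

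**Figure D4:**
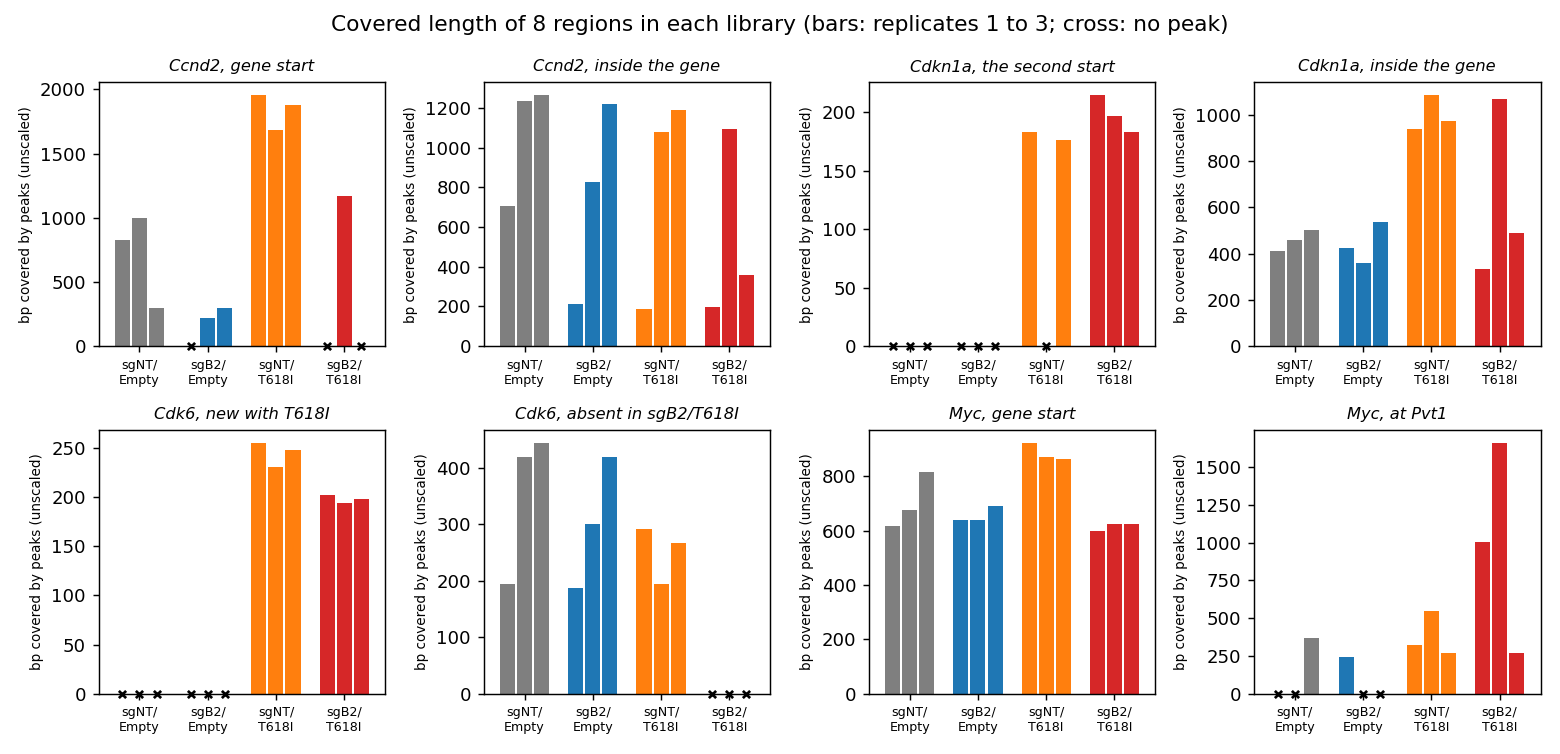
Bases covered by peaks (vertical axis, bp, not scaled) in 8 regions at Ccnd2, Cdkn1a, Cdk6 and Myc; bars are replicates 1 to 3 of each group and crosses mark libraries without a peak. The region of Cdk6 that appeared with T618I has 194 to 255 bp in 6 libraries and crosses in the other 6.

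Myc (chromosome 15, 61985341 to 61990361) lies in a window with few peaks, 3 regions being found in at least 2 libraries. The start (61984865 to 61985807) was open in all 12, over 758 ± 156 scaled bp under sgNT and 805 ± 121 under sgB2 with the empty vector, and 762 ± 14 under sgNT and 603 ± 105 under sgB2 with T618I (SD, n = 3). A second region in all 12 (61983329 to 61983659, 1.68 kb before the gene) was ranked 11922 to 18440 with T618I and 4131 to 11314 with the empty vector, without overlap, although as a percentage of the list (38.2 to 62.2 and 16.4 to 59.4) the ranges did overlap. The third, at the start of the non-coding gene Pvt1 (62037751 to 62039426), was covered over 0, 0 and 372 bp under sgNT and 240, 0 and 0 under sgB2 with the empty vector, and 322, 548 and 268 under sgNT and 1005, 1661 and 268 under sgB2 with T618I. It thus had a peak in all 6 T618I and 2 of 6 Empty libraries (exact p = 0.08). Window coverage was 1.31, 0.882 and 1.21 scaled kb under sgNT and 1.66, 1.04 and 1.03 under sgB2 with the empty vector, and 1.22, 1.47 and 1.18 under sgNT and 1.96, 2.3 and 1.31 under sgB2 with T618I. The highest values were 2 libraries of sgB2/T618I, and the groups overlapped otherwise. The change was 0.28 ± 0.13 with T618I (limma adjusted p = 0.226), 0.23 ± 0.13 with sgB2 (adjusted p = 0.45) and 0.51 ± 0.19 for sgB2/T618I against sgNT/Empty (adjusted p = 0.162). The sign of the T618I value turned in the 10 kb window, which leaves out the Pvt1 region (-0.10), with stricter peaks (-0.37) and with equal-length lists (-0.16).

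Because enhancers of Myc lie far away, regions up to 2 Mb from it were counted as well. Beyond the 50 kb window, 37 regions were found in at least 2 libraries, 7 upstream and 30 downstream, and 8 of the 37 were in all 12. The downstream stretch from 1.6 to 1.8 Mb held 12 of them, 3 in all 12 libraries, and is where the blood enhancer cluster of this gene is known to lie. These 3 were ranked lower with T618I. At 1.66 Mb (63647734 to 63648641) the ranks were 4119 to 5730 in the 6 T618I lists and 1248 to 2861 in the 6 Empty lists. At 1.67 Mb (63657724 to 63658743) they were 7114 to 11857 and 3987 to 6934.5. At 1.71 Mb (63704397 to 63705293) they were 4283 to 8111 and 537 to 1455. In each of the 3 the ranges did not overlap, where 2.94% of regions in all 12 libraries were lower in this way, and the lists themselves were 23695 to 32975 peaks long with T618I and 18484 to 29699 without. By percentage of the list, which takes the length out, the ranges were 12.8 to 23.1 and 4.94 to 12.7 at 1.66 Mb, 28.0 to 42.6 and 15.8 to 32.2 at 1.67 Mb, and 16.5 to 31.1 and 2.14 to 7.87 at 1.71 Mb. They overlap only at 1.67 Mb, and at 1.66 Mb they almost touch. The share of all regions that do not overlap by percentage was not counted. In the same cluster, a weak region at 63603230 to 63603601 (1.61 Mb) had a peak in all 6 sgNT libraries, over 239 to 372 bp, and in 0 of 6 sgB2 libraries (exact p = 0.005, the smallest possible, adjusted p = 1). It was also separated with at least 50% covered and in all 12 sets that left out a library, but not with stricter peaks or equal-length lists.

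Nearer the gene, Pvt1 held a region with a peak in all 6 T618I libraries and in 0 of 6 Empty libraries (62158047 to 62159240, 168 kb downstream). It was covered over 241, 233 and 279 bp in sgNT/T618I and 233, 330 and 1181 bp in sgB2/T618I (exact p = 0.005, adjusted p = 0.649). The separation was not found with stricter peaks, with equal-length lists or with at least 50% of the region covered, and it was found in all 12 sets that left out a library. A neighbour at 62152144 to 62152651 had a peak in all 6 T618I libraries and in 2 of 3 sgNT/Empty and 0 of 3 sgB2/Empty libraries (exact p = 0.05).

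**Figure D5:**
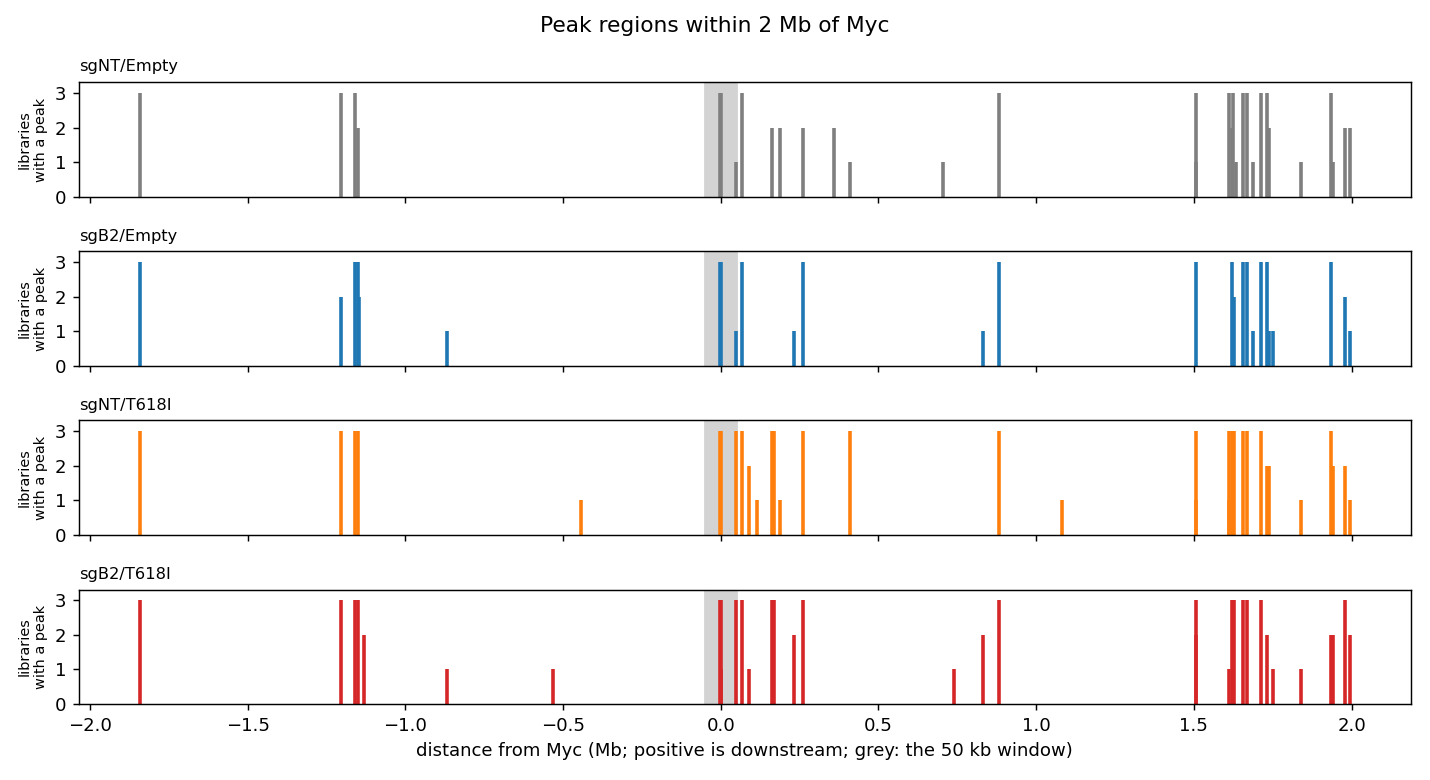
Number of libraries with a peak (vertical axis, 0 to 3) in each region within 2 Mb of Myc, by group, against the distance from the gene in Mb; grey marks the window of 50 kb. All groups show the downstream group of regions between 1.6 and 1.8 Mb, and the lines near 0.17 Mb reach 3 libraries in both T618I groups and at most 2 in the Empty groups.

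The cells with both changes were also compared with those with none (3 sgB2/T618I against 3 sgNT/Empty libraries). Ccnd2 was the 1 of 9 genes called, with a fall of -0.88 ± 0.23 (limma adjusted p = 0.0442), where 3.75% of tested genes were called and 1.6% fell. Its libraries were at 0.935, 2.2 and 1.03 against 3.04, 3.13 and 2.36 scaled kb, which do not overlap. This call too was lost in 14 of 24 other fits, among them those without scaling (-0.74, adjusted p = 0.564), with a 10 kb window (-1.12, 0.185) and without each of sgNT/Empty replicates 1 (0.107), 2 (0.128) and 3 (0.0536), sgNT/T618I replicates 1 (0.0586), 2 (0.0565) and 3 (0.0576) and sgB2/T618I replicates 1 (0.162) and 3 (0.149). Since it uses libraries of the guide comparison, it is no independent evidence. By presence of a peak in 3 against 0 libraries, 3 member regions were gained (2.92% of the 37113 regions in at least 2 libraries were, the base of the shares that follow too), at Cdk6, Cdkn1a and Cdk4 as given above, and 2 were lost (1.41%), at Ccnd2 and Cdk6. Within sgNT cells T618I gained 3 member regions (3.24%) and lost 0 (0.55%), and within sgB2 cells it gained 2 (3.24%) and lost 4 (0.911%). The guide gained 2 and lost 0 in Empty cells (0.701% and 0.94%), and gained 0 and lost 3 in T618I cells (0.878% and 1.84%). Each of these 3 against 3 patterns has an exact two-sided p of 0.1 at the least, so none can pass alone.

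Of 36 further genes of the same pathway, 35 could be tested. With T618I over both guides 4 rose and 0 fell, beside 6.47% of all genes called, 4.05% upward. They were Max, the partner of Myc (0.52 ± 0.14, limma adjusted p = 0.0333), Mga, a Max-binding repressor (0.42 ± 0.12, adjusted p = 0.0495), the retinoblastoma relative Rbl1 (0.41 ± 0.11, adjusted p = 0.0419) and the activating factor E2f2 (0.37 ± 0.09, adjusted p = 0.0261). All calls in this list, here and in the comparisons below, had a limma adjusted p of 0.0246 to 0.0495, near the threshold. How they hold under the other fits is not reported here. Around Max the coverage was 1.44 ± 0.296 scaled kb under sgNT and 1.19 ± 0.369 under sgB2 with the empty vector, and 2.52 ± 0.521 under sgNT and 1.72 ± 0.407 under sgB2 with T618I (SD, n = 3). The list's median change was 0.01, against -0.05 for all genes. Within sgNT cells 1 of 35 was called (E2f2, 0.62 ± 0.13, adjusted p = 0.0252), beside 1.49% of all genes, and within sgB2 cells 0 of 35, beside 1.6%. The test of the difference passed for 0 of the 35, with a lowest adjusted p of 0.926. Between sgB2/T618I and sgNT/Empty, 2 of 35 rose and 0 fell, beside 3.75% of all genes called, 2.15% upward. They were Mga (0.74 ± 0.17, adjusted p = 0.0246) and Fbxw7, which marks Myc and cyclin E for degradation (0.53 ± 0.14, adjusted p = 0.0485). With sgB2 over both vectors 0 of 35 passed, beside 2.83% of all genes, and 5 had an unadjusted p under 0.05, as did 15.7% of all genes.

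The genes whose coverage was most like that of a member over the 12 libraries, by Pearson correlation of the log2 values, were Gch1 for Ccnd2 (0.932), Tmem209 for Ccnd1 (0.919), Chtop and S100a1 for Ccnd3 (0.964 each), Atf1 for Cdk4 (0.904), Msi2 for Cdk6 (0.879), Relt for Cdkn1a (0.884), Aanat for Cdkn1b (0.917), 1700034I23Rik for Cdkn2c (0.85) and Trem2 for Myc (0.901). Each is the highest of the values of 15282 tested genes over 12 libraries that share their scaling, and is given as a description.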

How the data were processed

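The samples were 12 ATAC-seq libraries in 4 groups of 3, with 1 deposited MACS2 broad peak list each on mm10. Per the submitters' processing notes, the authors used BWA 0.7.17, SAMtools 1.9, bedtools 2.30, MACS2 2.2.7.1 and deepTools 3.5. The deposited −log10 p and −log10 q ranked or filtered peaks within a list. The deposited fold, a ratio over background, is quoted as the authors' value, and the deposited score was not used.

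Peak-covered bp in each gene span ± 50 kb were scaled to equal total coverage, 500 bp were added, and log2 values of the 15282 genes averaging 500 bp or more were fitted with limma 3.58.1 (trend) in R 4.3.3 to 4 groups with 12 libraries and 8 residual degrees of freedom, with Benjamini-Hochberg adjustment at 0.05 over all genes in each of 8 comparisons. Peaks that shared 1 bp or more became a merged region. Presence was tested by an exact permutation test within the other factor (400 arrangements, smallest two-sided p 0.005), adjusted over the 37113 regions in at least 2 libraries. A region is gained or lost when all libraries of a side and none of the other have a peak. Python 3.11.15, numpy 2.4.6, pandas 2.3.3 and matplotlib 3.10.9 were used, and the scripts were tested on simulated data. No exon annotation was used, so exons and introns are not named.

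All 9 members and the pathway list were chosen with earlier results of these data known. Named were all members, pathway genes past the threshold, the 1 or 2 genes most like each member, and regions at gene ends, separating groups or highest in rank. Alternatives were a 10 kb window, no scaling, stricter peaks (−log10 q of at least 5), lists cut to 18484 peaks, 250 or 1000 bp added, no filter, no variance trend, the peak number as covariate, peaks counted, a replicate block, 50% of a region covered and each library left out. Leaving out both shortest lists, ranks in regions of all 12 libraries and the alternatives beyond 50 kb of Myc were added after seeing the data.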

Additional observations from a re-analysis of the deposited data

How the results depend on the processing

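The T618I and sgB2 values of the 9 genes were refitted under 24 alternatives. Of 430 values 386 kept their direction and side of the threshold, 15 lost it (all Ccnd2 with sgB2), 6 passed it and 23 turned sign. With T618I the number of members called was 1 in the 10 kb window, 4 with equal-length lists and 1 with peaks counted, in place of 0, where 3.13%, 8.48% and 2.69% of all genes were called. With equal-length lists it was 1 in sgNT cells (3.51% of all genes) and 2 in sgB2 cells (2.45%). With sgB2 it was 0 in place of 1 with the 10 kb window, no scaling, stricter peaks, equal-length lists, no low filter, peaks counted and without both shortest lists (1.03, 0.144, 0.834, 2.3, 0.722, 1.61 and 3.11% of all genes), and 0 to 1 over the fits that left out a library. In T618I cells it was 0 to 1 with a library left out (1 without sgB2/T618I replicate 2, where 0.38% of all genes were called). For sgB2/T618I against sgNT/Empty it was 0 with the 10 kb window, no scaling, stricter peaks, no low filter, no variance trend and without both shortest lists (1.77, 0.157, 1.82, 1.03, 3.11 and 3.8% of all genes), 2 with equal-length lists (5.15%) and 0 to 1 with a library left out. Member regions that separate T618I numbered 0 with stricter peaks and 1 to 2 with a library left out, the added ones being the region 13.4 kb from Ccnd2 without sgNT/T618I replicate 1 and the second start of Cdkn1a without sgNT/T618I replicate 2. For sgB2 they were 0 to 1, the one being at Ccnd1 (144943294) without sgB2/T618I replicate 1.

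Signs of T618I values turned without scaling at Ccnd2 (0.091), Ccnd3 (0.092) and Cdk6 (0.21), with peaks counted at Cdkn1a (-0.047) and Cdkn2c (-0.071), and at Myc in the 10 kb window (-0.098), with stricter peaks (-0.37) and with equal-length lists (-0.16). With a library left out, the T618I value ranged from -0.029 to 0.053 at Cdkn1a and from -0.095 to 0.092 at Cdkn1b. Signs of sgB2 values turned with stricter peaks at Ccnd3 (0.045), Cdkn2c (0.15) and Myc (-0.27), with equal-length lists at Cdkn2c (0.061), Myc (-0.12) and, in T618I cells, Ccnd2 (0.049), and with peaks counted at Cdkn1a (0.024), Cdkn1b (0.20) and Cdkn2c (0.0076). Ccnd3 ranged from -0.13 to 0.0050 with a library left out. The causes were not tested.

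The labels do not say whether same replicate numbers mark paired libraries, and the correlations cannot decide it. Over 18 pairs with the same number the correlation of deviations was -0.158 to 0.216, with 4 above 0.1. Over pairs with different numbers it was -0.298 to 0.252, and 6 of 12 libraries correlated best with their own number. With a replicate block 1 member was called with sgB2 (Ccnd2, limma adjusted p = 0.0232) and 0 with T618I, and no other call changed. Depth is unknown, so a missing peak may be a weak one.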
